A study of Mus musculus with 59 samples.

Results

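The transcriptome of brown adipose tissue (BAT) was examined 24 h after thyroid hormone was given to hypothyroid mice. The members were chosen by their labels, as the 4 wild-type mice sampled 24 h after the injection (B24, B26, B27 and B28) and the 4 wild-type hypothyroid controls (B2, B3, B4 and B5), or 8 of the 59 mice of the series. All 8 were C57BL/6J males, with an age of 8 to 12 weeks in the labels, and all had received propylthiouracil (PTU), which blocks hormone synthesis in the thyroid, in their food. The controls had PTU alone. The treated mice had in addition a single intraperitoneal injection of T3, the active hormone, together with T4, its precursor. Of the other mice, 4 wild-type mice sampled at 12 h and 10 BATKO mice on the same protocol (5 controls and 5 at 24 h) are used to show where the 24 h response differs. What was altered in the BATKO mice is not given in the sources used here, and the controls stand for a hypothyroid state and not for untreated mice.

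Brown fat burns fatty acids and glucose to produce heat. The uncoupling protein UCP1 lets protons return into the mitochondrial matrix without making ATP, so that respiration runs freely and the tissue draws on stored triglyceride, on lipids from the blood and on glucose. Thyroid hormone takes part in this programme, and brown fat makes its own T3 from T4 with the deiodinase DIO2. T3 acts through nuclear receptors that bind repeats of a short DNA half-site and regulate transcription of nearby genes.

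The total count was between 9594449 and 14615534 per mouse. Values are normalised counts, which are counts scaled to the mean effective library, in the order B2, B3, B4, B5 for the PTU mice and B24, B26, B27, B28 for the treated mice. Fold changes are log2 values from edgeR's quasi-likelihood fit with their standard errors (SE) and p-values adjusted over all genes tested. A gene was called upregulated or downregulated at an adjusted p under 0.05. Genes of the mitochondrial genome took 52.0%, 55.7%, 47.3% and 51.9% of the counts in the PTU mice and 52.5%, 45.8%, 40.5% and 44.8% in the treated mice. The groups overlapped, and the means, 51.7% ± 3.44 and 45.9% ± 4.93 (SD, n = 4), had a difference that did not pass the test (two-sided exact permutation test, p = 0.114, where 0.0286 is the smallest possible). B24 and B27, at the ends of the range of the treated mice, were also the least alike pair of that group. The summed count of 18 skeletal muscle genes was 1872 to 14859 in the PTU mice and 5744 to 25511 in the treated mice. Muscle transcripts thus varied from library to library and overlapped between groups, with a mean 2.02-fold higher at 24 h. The tissue label matched its markers, and the lowest level of Ucp1, the defining gene of brown fat, was 56416 normalised counts (B3).

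Of 13003 genes tested, 2239 were upregulated (17.2%) and 2013 were downregulated (15.5%). The median log2 fold change over all genes tested was 0.01. Most called changes were below 2-fold, with 681 genes at least 2-fold up and 488 at least 2-fold down. Without regard to any call, every treated mouse lay above every control for 15.2% of the genes tested and below for 13.9%. The counts of list members given below are to be read against these shares.

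Heat production was described by 26 genes of thermogenesis and brown fat identity, of which 25 were tested. The list was divided, with 7 members up and 7 down and a median of 0.10. Ucp1 stood at 67142, 56416, 62343 and 77440 normalised counts in the PTU mice and at 96113, 115770, 182320 and 107150 in the treated mice. All treated mice were above all controls, and B27 was the highest. This was a rise of 1.90-fold (log2 fold change 0.93, SE 0.21, adjusted p = 0.00164). Cox7a1, a subunit of cytochrome c oxidase, rose by 0.82 on the log2 scale (SE 0.17). Esrrg, Ppargc1b and Esrra, which encode regulators of mitochondrial genes, rose by 1.16, 0.77 and 0.48, and Letmd1, a mitochondrial membrane protein gene, by 0.81. The secreted factor gene Bmp8b was at 2.85, 1.15, 0 and 0 normalised counts in the controls and at 34.6 to 84.5 after treatment. These last 5 genes were named after their values were seen.

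Other genes of the same list fell. The β3-adrenergic receptor gene Adrb3, through which noradrenaline activates brown fat, was at 4136, 4121, 3923 and 3759 in the PTU mice and at 621, 645, 1724 and 1498 in the treated mice. B24 and B26 formed a lower pair and B27 and B28 a higher one, and neither reached the controls (log2 fold change -1.83, SE 0.34, adjusted p = 0.000344). Elovl3, a fatty acid elongase gene typical of active brown fat, was at 3000.1 to 7886 in the PTU mice and 710.2 to 1805 in the treated mice (log2 fold change -2.25, SE 0.48, adjusted p = 0.00107). Ppara, Cidea, Lhx8, Zic1 and Ebf2, the other members called down, fell by 0.38 to 1.16. Dio2 was at 377, 1436, 1094 and 2961 in the PTU group and at 934, 2735, 8167 and 3314 in the treated group. The groups overlapped, and its log2 fold change of 1.37 (SE 0.53) missed the threshold at an adjusted p of 0.051, while 7 alternative fits put it past it. Ppargc1a, a coactivator of mitochondrial genes, was not called (log2 fold change 0.72, SE 0.39, adjusted p = 0.168), though without B5 it was, at 1.17 (adjusted p = 0.0298).

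**Figure D1:**
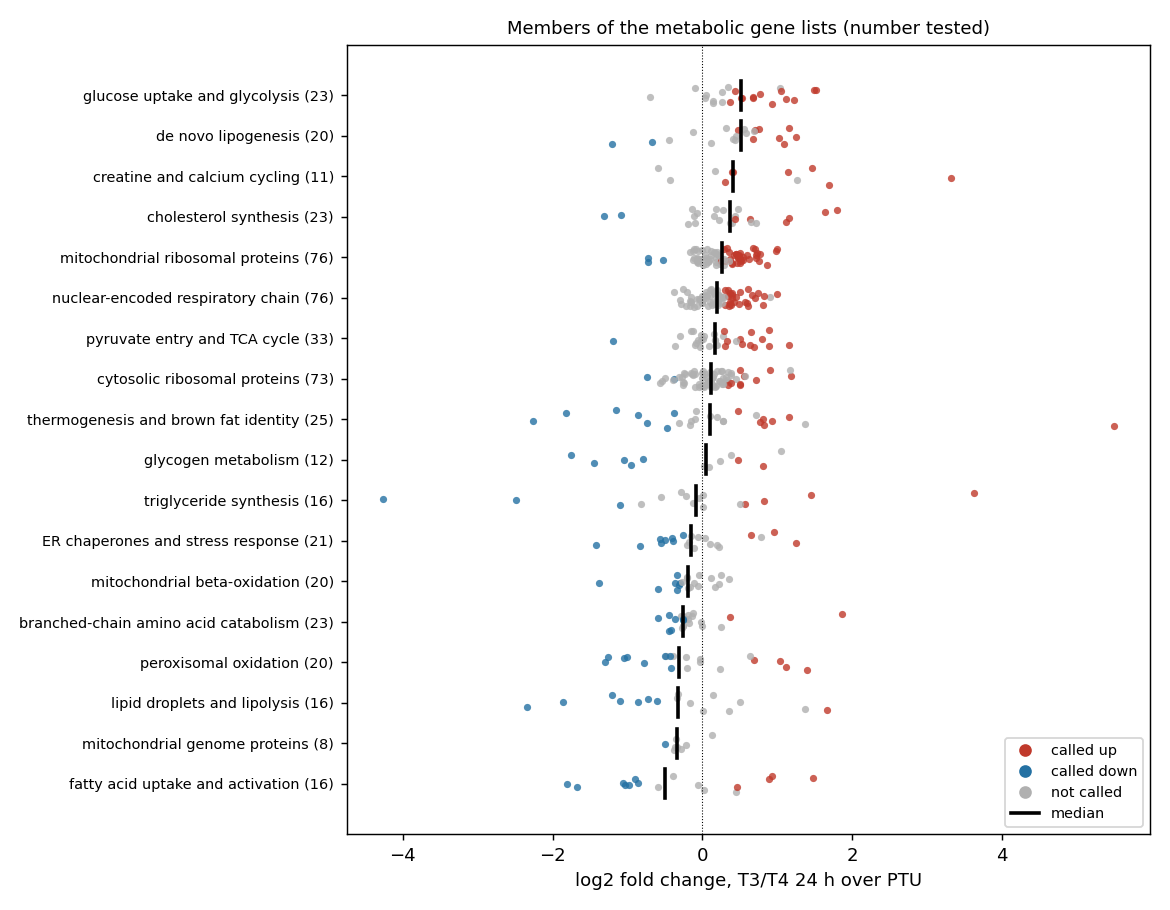
Log2 fold change at 24 h over PTU (x axis) for each tested member of the metabolic gene lists (y axis), with colours for the edgeR call and a bar at the list median. Members of glucose uptake and glycolysis lie mainly to the right, with 13 of 23 called up, and those of fatty acid uptake mainly to the left, with 7 of 16 called down.

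Most adipocyte markers fell. Of 16 pan-adipocyte genes, all tested, 12 were called down and 1 up, against 15.5% and 17.2% of all genes, with a median of -0.90, and for 12 of them every treated mouse lay below every control. Car3, a carbonic anhydrase abundant in fat cells, was at 125300, 185220, 97769 and 94901 normalised counts in the PTU mice and at 10661, 8764, 4862 and 6402 in the treated mice. It was thus 16.4-fold lower (log2 fold change -4.04, SE 0.33, adjusted p = 1.04e-08), and no treated mouse came near a control. Adipoq, which encodes the hormone adiponectin, went from 16358, 17441, 16716 and 15678 to 3714, 4333, 3542 and 3477. Both groups were narrow and far apart (log2 fold change -2.14, SE 0.13, adjusted p = 1.18e-10). Cidec, whose protein enlarges lipid droplets, went from 9659.5, 10939, 9512 and 12145 to 1397, 2088, 2686 and 2176, again without overlap (log2 fold change -2.34, SE 0.22, adjusted p = 8.13e-08).

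The droplet coat gene Plin1, the fatty acid carrier Fabp4, the transcription factor Cebpa, the glycerol channel Aqp7 and the hormone-sensitive lipase Lipe fell less, by 1.10, 0.98, 0.95, 0.85 and 0.60 on the log2 scale (named after their values were seen). Retn, which encodes resistin, fell by 0.69 (SE 0.21), a call lost without B27 (-0.58, adjusted p = 0.0515). Pparg, the nuclear receptor that maintains the fat cell state, was at 5019 to 6361 in the controls and 4105 to 5585 in the treated mice and was not called (also named after its values were seen). Pnpla2, which encodes the first lipase of triglyceride breakdown, was at 10928 to 15290 and 15990 to 20511, so that all treated mice were higher, but it was not called (log2 fold change 0.36, SE 0.18, adjusted p = 0.131). The single pan-adipocyte gene called up was Lep, which encodes leptin. It was at 11.4, 17.2, 22.0 and 45.6 in the PTU mice and at 352, 329.9, 28.8 and 120.3 in the treated mice. B27 lay within the range of the controls and the other treated mice above it (log2 fold change 3.11, SE 0.72, adjusted p = 0.00225). In bulk tissue, fewer cells of a type and less RNA of its genes per cell cannot be told apart.

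**Figure D2:**
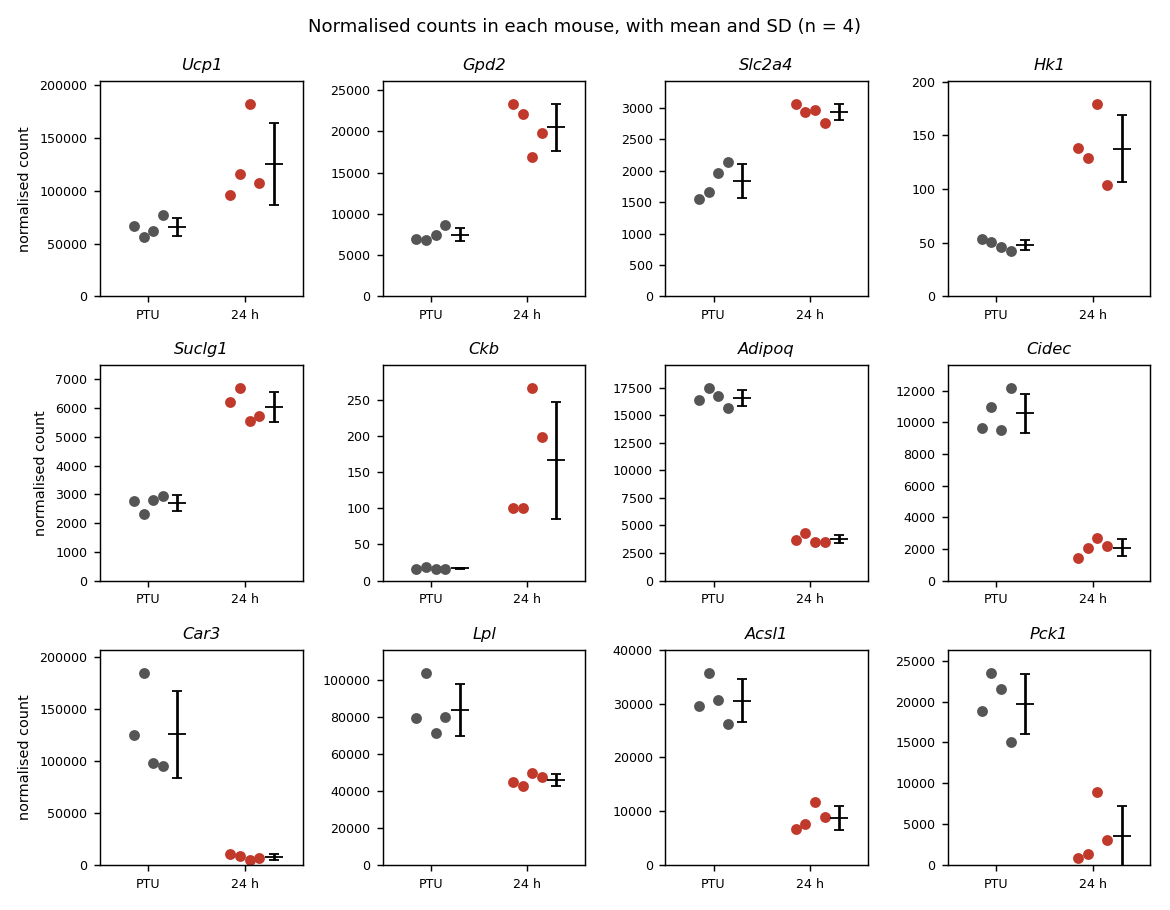
Normalised counts (y axis) of single genes in each PTU mouse and each mouse 24 h after T3/T4, with the group mean and SD (n = 4). B27 is the highest treated mouse for Ucp1 (182320) and for Pck1 (8880.2).

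Among genes of fatty acid entry, some of them shared with the adipocyte list, more fell than rose. Of 16 tested genes of fatty acid uptake and activation, 7 were down and 4 up, with a median of -0.50. Lpl, the lipoprotein lipase that releases fatty acids from circulating triglyceride, was at 79489, 104180, 71331 and 80264 normalised counts in the controls and at 44735, 42490, 49839 and 47409 in the treated mice. No treated mouse reached the lowest control (log2 fold change -0.86, SE 0.13, adjusted p = 4.02e-05). Acsl1, which activates fatty acids to acyl-CoA, went from 29557, 35801, 30769 and 26316 to 6647, 7668, 11752 and 8952 (log2 fold change -1.81, SE 0.16, adjusted p = 5.14e-08). The transporter gene Slc27a1 fell by 1.67 (SE 0.21), and Cd36, another transporter named after its values were seen, by 1.03. The 4 members called up were Fabp3, Acsl5, Lmf1 and Slc27a4, between 0.47 and 1.48.

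In the list of lipid droplets and lipolysis, 7 of 16 genes were down and 1 was up, with a median of -0.33. Cidec, described above with the adipocyte markers, is counted in this list too. Plin4, a droplet coat gene, was at 1019 to 1259 in the controls and 174 to 458 in the treated mice (log2 fold change -1.87, SE 0.24, adjusted p = 5.58e-06). The member called up was Hilpda, an inhibitor of lipolysis, at 1.66 and low counts, and without B2 or B24 there were 2. There were also 2 with DESeq2, with no filter on low counts, without mitochondrial genome genes or with only these 8 mice. With a mean count above 50 there were 0. Triglyceride synthesis was divided, with 3 genes down (5 without B27) and 4 up among 16 tested. Gpat3, an enzyme of the first step of glycerolipid synthesis, went from 452, 511, 329.9 and 382 normalised counts to 19.1, 19.3, 37.2 and 11.0, which was 19.2-fold lower without overlap (log2 fold change -4.26, SE 0.29, adjusted p = 9.05e-10). It overlaps the gene model Gm42987 on the same strand. Pck1, which supplies the glycerol backbone from small precursors, went from 18809, 23555, 21520 and 14995 to 847, 1339.9, 8880.2 and 3000.1. The treated mice were unequal, with B27 highest, but all were below the controls (log2 fold change -2.49, SE 0.47, adjusted p = 0.00034).

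Gpd2, the mitochondrial glycerol-3-phosphate dehydrogenase and a known thyroid hormone response gene, rose in that list. It was at 7004, 6790.2, 7486 and 8609.9 in the PTU mice and at 23319, 22060, 16859 and 19779 in the treated mice, or 2.74-fold higher without overlap (log2 fold change 1.46, SE 0.11, adjusted p = 4.49e-09). Dgat2, which completes triglyceride synthesis, rose by 0.57 (SE 0.18, adjusted p = 0.0191), a call lost without B2, B3 or B28. Gk, the glycerol kinase gene, was at 2098 to 3039.8 in the controls and at 603, 594, 3706 and 1204 in the treated mice. B27 exceeded every control while the other treated mice were below all of them, and Gk was not called (adjusted p = 0.152), though without B27 it was, at -1.74. Angptl4, an inhibitor of lipoprotein lipase, was not called (log2 fold change -0.59, SE 0.30, adjusted p = 0.136).

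A minority of fatty acid oxidation genes fell. Of 20 genes of mitochondrial β-oxidation, 0 were called up and 7 down by edgeR, with a median of -0.20. Without B27, 4 were down, and with only these 8 mice in the fit 1 was up. Acot2, an acyl-CoA thioesterase, fell most, from 538 to 791 to 221 to 352 (log2 fold change -1.38, SE 0.20, adjusted p = 2.16e-05). Acadm, the medium-chain acyl-CoA dehydrogenase, fell by 0.59 (SE 0.12) and Acadl, its long-chain counterpart, by 0.34 (SE 0.10). Cpt1b, which controls the entry of fatty acids into mitochondria, was at 53.1 to 92.3 in the controls and 43.0 to 72.4 in the treated mice and was not called. In the peroxisomal list, 8 of 20 genes were down and 4 up, with a median of -0.31, and 5 were down without B2 or without B28. Acot4, a peroxisomal thioesterase, fell by 1.30 (SE 0.36), although B27, at 153, lay close to the lowest control. Pecr, a reductase of unsaturated acyl-CoA, rose by 1.39 (SE 0.19).

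Of 23 genes of branched-chain amino acid catabolism, 7 were down and 2 up (1 up without B2, B3, B4, B26 or B27). The decreases were small, the largest being that of Aldh6a1, a dehydrogenase of valine breakdown, at -0.59 (SE 0.15). Mcee, the methylmalonyl-CoA epimerase at the end of the pathway, stood apart, at 485, 475, 464 and 531 in the PTU mice and 1819, 1859, 1697 and 1735 in the treated mice. Both groups were narrow and did not overlap (log2 fold change 1.86, SE 0.14, adjusted p = 3.36e-09).

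Of 23 tested genes of glucose uptake and glycolysis, 13 were up and 0 were down by edgeR (1 without B27), against 17.2% and 15.5% of all genes, with a median of 0.52. The summed count overlapped between groups, at 45227 to 62191 in the controls and 52118 to 69870 in the treated mice. Slc2a4, the insulin-responsive glucose transporter GLUT4, was at 1551, 1665, 1967 and 2142 normalised counts in the controls and at 3060.4, 2939, 2970.3 and 2756 in the treated mice. No control reached the lowest treated mouse (log2 fold change 0.68, SE 0.13, adjusted p = 0.000431). Hk1, a hexokinase gene that has the antisense gene Hk1os on the other strand, went from 53.1, 50.4, 46.5 and 42.3 to 139, 129, 179 and 104, without overlap (log2 fold change 1.52, SE 0.21, adjusted p = 1.16e-05). Pfkfb1, which sets the level of an activator of glycolysis, was at 268 to 357 and 686 to 1056 (log2 fold change 1.49, SE 0.16, adjusted p = 4.56e-07). Hk2, Pfkl and Ldha, which encode a second hexokinase, a phosphofructokinase and a lactate dehydrogenase subunit, were not called, with log2 fold changes of 0.35, 0.15 and -0.10. Tpi1, Eno1, Pgk1 and Gapdh, enzymes of the lower pathway named after their values were seen, rose by 0.52 (Tpi1) to 1.22 (Gapdh). Such genes have processed copies in the genome and reads that aligned poorly had been removed, so that their counts are uncertain. Pfkm, the muscle phosphofructokinase gene, also rose (1.05), and the muscle transcripts were higher on average in the same mice. Their part in the result was not tested.

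The letters AGGTCA, the half-site that thyroid hormone receptors and other nuclear receptors bind, were searched on both strands from 250 bases before to 50 bases after the gene start (RefSeq, build GRCm38.p6, 1 window a gene). They occurred in 3 of the 12 glycolysis genes called up that had a window, or 25.0%, against 13.9% of the 1657 called-up genes with a window, 11.8% of tested genes with a window and 16.0% of all 27025 windows. Among the genes called in the direction of their list, the share was 9.09% to 50% over 7 lists searched, each with few windows. The 3 glycolysis windows are printed because these genes rose together, with the half-site or its reverse complement TGACCT in capitals. They belong to Eno1 (chr4:150236458-150236757, plus strand), Ldhb (chr6:142507908-142508207, minus strand) and Tpi1 (chr6:124814109-124814408, minus strand), which encode enolase, a lactate dehydrogenase subunit and triosephosphate isomerase.
Eno1: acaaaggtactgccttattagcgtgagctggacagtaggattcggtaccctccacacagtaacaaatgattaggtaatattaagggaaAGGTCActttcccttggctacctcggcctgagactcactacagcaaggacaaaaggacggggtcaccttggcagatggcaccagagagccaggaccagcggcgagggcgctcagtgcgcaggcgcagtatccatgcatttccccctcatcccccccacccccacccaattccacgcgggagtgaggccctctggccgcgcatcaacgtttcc
Ldhb: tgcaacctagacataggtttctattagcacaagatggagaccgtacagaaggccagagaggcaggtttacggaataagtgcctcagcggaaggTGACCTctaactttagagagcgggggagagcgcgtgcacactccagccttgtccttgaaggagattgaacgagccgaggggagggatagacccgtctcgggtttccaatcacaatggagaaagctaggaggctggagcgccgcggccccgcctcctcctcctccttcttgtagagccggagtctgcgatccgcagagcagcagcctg
Tpi1: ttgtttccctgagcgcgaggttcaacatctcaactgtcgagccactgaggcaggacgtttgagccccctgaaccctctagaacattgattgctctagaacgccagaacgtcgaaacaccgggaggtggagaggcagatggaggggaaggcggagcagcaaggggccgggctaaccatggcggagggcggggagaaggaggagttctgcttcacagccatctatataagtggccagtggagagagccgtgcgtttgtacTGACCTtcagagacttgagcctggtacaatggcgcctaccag
The half-sites begin 162 and 157 bases before the start of Eno1 and Ldhb and at base 9 of the Tpi1 transcript. The spaced repeat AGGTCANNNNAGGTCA, in which N is any base, was in 3 of all windows and in 0 of those of tested genes. A match describes the letters of the window only.

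Downstream of glycolysis, 12 of 33 genes of pyruvate entry and the TCA cycle were up and 1 was down, with a median of 0.17. Without B4, B24 or B26, 2 were down. Suclg1, a subunit of succinyl-CoA ligase, was at 2752, 2322, 2806 and 2959 in the PTU mice and at 6222, 6686, 5547 and 5732 in the treated mice. The groups were far apart (log2 fold change 1.16, SE 0.10, adjusted p = 3.22e-08). Subunits of pyruvate dehydrogenase (Pdhb, 0.89, and Dlat, 0.80) and of the mitochondrial pyruvate carrier (Mpc2, 0.69, and Mpc1, 0.34) rose too, and were named after their values were seen. The member called down was Pdk1, a kinase that inhibits pyruvate dehydrogenase, at 1669 to 1961 in the controls and 672 to 870.5 in the treated mice (log2 fold change -1.19, SE 0.18, adjusted p = 3.48e-05). Its relative Pdk4 was not called (it was without B24), and ranged from 9856 in B24 to 32502 in B27. Cs, citrate synthase, rose by 0.31 (SE 0.12, adjusted p = 0.0472), a call kept in 1 of the 8 fits that left out 1 mouse.

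Genes of respiration lie in the nucleus and in the mitochondrial genome. Of 76 nuclear-encoded subunits of the respiratory chain, 26 were up and 0 down by edgeR, with a median of 0.20. Ndufb10, a subunit of complex I, was at 1279, 1139, 1506 and 1436 in the PTU mice and at 2457, 2421, 2346 and 2200.1 in the treated mice, without overlap (log2 fold change 0.81, SE 0.10, adjusted p = 4.03e-06). Among 76 tested mitochondrial ribosomal proteins, 35 were up and 3 down, with a median of 0.26 (1 down without B3), and Mrpl34 and Mrpl12 rose by 1.00 and 0.98. Of the 13 proteins encoded by the mitochondrial genome 8 were tested. The others did not pass the filter over the 20 wild-type mice, though all 13 passed it over the 30 mice that include BATKO. The cause was not tested. The 8 tested genes had a median of -0.34. The 1 called was mt-Nd5, a subunit of complex I, which fell with overlapping groups (log2 fold change -0.49, SE 0.16, adjusted p = 0.0203) and shares its locus with mt-Nd6 on the other strand. That number was 0 without B3, B27 or B28 and 3 without B4, where 1 nuclear-encoded subunit was also down. It was 3 with DESeq2 and 0 with only these 8 mice or all 30 mice in the fit. With all 30 mice 1 nuclear-encoded subunit was down. Without B24, whose mitochondrial share was that of the controls, 6 of these 8 genes and 5 nuclear-encoded subunits were called down, and 20 nuclear-encoded subunits were called up. Cytosolic ribosomal proteins had 9 genes up and 2 down of 73 tested (6 down without B24 and 1 without B3, B4, B27 or B28), with Rpl13a at 0.71 and Rpl8 at 0.55, and many have pseudogene copies, so that their counts are uncertain.

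More genes of fatty acid synthesis from carbohydrate were called up than down, while their summed count overlapped between groups. Of 20 lipogenic genes, 8 were up and 2 down, with a median of 0.51, and 1 was down without B4, B5, B27 or B28. Mlxipl, which encodes the glucose-responsive regulator ChREBP, was at 815, 863, 996 and 1315 in the PTU mice and at 2775, 2719.6, 1904 and 2086 in the treated mice, without overlap (log2 fold change 1.25, SE 0.19, adjusted p = 2.75e-05). Thrsp, the thyroid hormone responsive Spot 14 gene, rose with B27, at 35204, inside the range of the controls (log2 fold change 0.68, SE 0.21, adjusted p = 0.0175), and lost its call without B3 or B26. Acly, Acaca, Fasn, Scd1 and Me1, enzymes of fatty acid synthesis, desaturation and NADPH supply, were not called, with log2 fold changes of -0.45 to 0.45, though Me1 passed the threshold without B27. Slc25a1, the citrate carrier that feeds them, was at 5680 to 8535 in the controls and 2808 to 3508 in the treated mice (log2 fold change -1.20, SE 0.16, adjusted p = 7.93e-06). Cholesterol synthesis had 6 of 23 genes up and 2 down, with a median of 0.37. Sc5d, an enzyme of the last steps, rose by 1.64 (SE 0.26), and the early enzyme Hmgcs1 and the regulator Insig1, both named after their values were seen, fell by 1.08 and 1.31.

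Creatine and calcium cycling, which can produce heat beside UCP1, had 7 of 11 tested genes up and 0 down by edgeR. Without B2, 4 were up, and without B3 or B5, 1 was down. Skeletal muscle also cycles creatine and calcium, and the part of the muscle transcripts, higher on average in the treated mice, was not tested. Ckb, the brain-type creatine kinase, was at 16.1, 18.3, 15.7 and 16.7 normalised counts in the controls and at 100.3, 99.9, 266 and 198 in the treated mice. The rise was seen in every treated mouse (log2 fold change 3.32, SE 0.58, adjusted p = 0.000162). Alpl, the phosphatase of the same cycle, was at 101 to 137 and 254 to 497 (log2 fold change 1.69, SE 0.23, adjusted p = 8.61e-06). In glycogen metabolism 5 of 12 genes were down and 2 up. Ppp1r3d and Ppp1r3c, which bring a phosphatase to glycogen, fell by 1.75 (SE 0.21) and 1.45 (SE 0.19). Among 21 tested genes of endoplasmic reticulum chaperones and stress, 8 were down and 3 up (5 down without B3, B26 or B27, and 4 with only these 8 mice in the fit), with the chaperone Dnajb9 at -1.42 (SE 0.15) and Manf, a stress-induced secreted protein, at 1.26 (SE 0.15).

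Among genes with a mean normalised count above 50 over the 20 wild-type mice and no overlap, the largest increases included transcripts that were nearly undetected in the hypothyroid tissue. Gm32468, annotated as a long intergenic RNA, and 9030619P08Rik had at most 2 counts in any control. At 24 h both were detected in every mouse, and Gm32468 was at 1206, 1082, 582 and 979 normalised counts. Slco4a1, an organic anion transporter that carries thyroid hormone, was at 2.85, 1.15, 3.15 and 3.34 in the PTU mice and at 353, 409, 381 and 376 in the treated mice. All treated mice were alike (log2 fold change 7.08, SE 0.38, adjusted p = 3.62e-11). Apln, which encodes the peptide apelin, went from 3.94 to 7.59 to 119.8 to 309 (log2 fold change 5.25, SE 0.41, adjusted p = 4.62e-09). Mylk4 and Fndc5, known from muscle, were at 50.2, 341, 105 and 124 and at 117 to 353 in the treated mice and under 5 in every control. Mylk4 was lowest and highest in B24 and B26, which also had the lowest and highest muscle sums of the treated mice, while the muscle sum of the control B2 was above that of B24. The part of muscle transcripts in Mylk4 and Fndc5 was not tested.

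Of the largest decreases under the same limits, B3galt2, a glycosyltransferase gene, went from 2656, 3866, 2443 and 2636 to 63.3, 131, 188 and 194, without overlap (log2 fold change -4.31, SE 0.34, adjusted p = 6.68e-09). Nabp1, which encodes a single-strand DNA-binding protein, went from 6691 to 13315 to 784 to 1156 (log2 fold change -3.41, SE 0.28, adjusted p = 1.39e-08). Arxes2, a gene induced in fat cell differentiation, was narrow at 218 to 235 in the treated mice, against 1520.5 to 3101 in the controls (log2 fold change -3.25, SE 0.28, adjusted p = 2.51e-08). Cdsn fell by 3.26 (SE 0.56), with the control B4 far above the other controls.

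Markers of cell types were used to describe the composition of the tissue. The summed pan-adipocyte count was 353740 to 491080 in the PTU mice and 146750 to 158140 in the treated mice, a ratio of 0.378. Without Car3, a choice made after seeing the data, the ratio was 0.524 and the groups were still apart, at 255970 to 305850 and 137720 to 153280. The summed count of thermogenesis and brown fat identity genes, most of it Ucp1, went the other way. It was 112360 to 142380 in the PTU mice and 145120 to 247540 in the treated mice, a ratio of 1.45. Of 5 tested white fat genes, Lep and Retn among them, 3 were down (1 without B27) and 1 was up. Their list's summed count was 1633 to 1738 in the PTU mice and 816 to 1569 in the treated mice, a ratio of 0.740. The sums of other structural cells overlapped between groups, with ratios of 1.08 for 20 genes of preadipocytes and fibroblasts, 1.09 for 19 endothelial genes and 1.05 for 12 genes of pericytes and smooth muscle.

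Within these lists a few genes changed. Among fibroblast genes 5 were down and 2 up, with Cd55, a complement regulator, at -1.55 (SE 0.22) and F3, the tissue factor gene, at 1.54 (SE 0.46) with overlapping groups, a call lost without B26. The number down was 2 without B24 or B26 and 3 without B2 or B3, and the number up was 4 without B4 and 1 without B2, B3, B5, B26 or B27. The collagens Col1a1 and Col3a1, the receptor Pdgfra and Ly6a were not called, though Pdgfra passed the threshold without B4 and Ly6a without B24 or B26. Among endothelial genes 4 were up (2 without B2, B4 or B28) and 2 down (1 without B2, B3, B4, B24, B26 or B28). With all 30 mice in the fit 0 endothelial genes were down. The vascular receptors Flt1 and Tie1 rose by 0.75 (SE 0.15) and 0.69 (SE 0.16), Pecam1 fell by 0.29 (SE 0.11, lost in most alternatives), and Cdh5, the junction protein of endothelium, was at 1565 to 1923 and 1538 to 1702 and not called. Of pericyte and smooth muscle genes 1 was up and 2 were down, with 1 down without B2, B3 or B5 and 0 without B4, B26 or B27. The number down was also 0 with only these 8 mice in the fit. Des, a filament protein that skeletal muscle shares, rose by 1.23 (SE 0.18), Tagln fell by 0.46 (SE 0.17), and Rgs5, a pericyte marker, was not called. Among 8 tested genes of Schwann cells and nerve, 0 were up and 2 down (1 without B3, B4 or B28). The sodium channel gene Scn7a went from 367 to 561 to 153 to 194 (log2 fold change -1.49, SE 0.18, adjusted p = 1.71e-06).

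Immune markers were at low counts. Of 10 tested pan-leukocyte genes 0 were called by edgeR, and Ptprc (CD45) was at 23.4 to 42.7 in the PTU mice and 20.5 to 40.7 in the treated mice. The summed pan-leukocyte count was 546 to 779 in the controls and 607, 607, 991 and 953 in the treated mice, and the macrophage sum was 875 to 1415 and 1126, 1160.5, 1906 and 1711. In both, B27 and B28 were above every control and B24 and B26 within their range. In the macrophage list 2 of 14 tested genes were up, Cd68 (0.89, SE 0.26) and Gpnmb (2.3, SE 0.52), both of which encode lysosomal membrane proteins, while the macrophage genes Adgre1 and Lyz2 were not called. By edgeR, 0 of 6 genes of dendritic cells and antigen presentation, 0 of 4 of monocytes and neutrophils, 0 of 6 of mast cells and 0 of 5 of erythroid cells were called, with 1 mast cell gene down without B2, B4, B24 or B26. The summed mast cell count was 357 to 599.5 in the controls and 176 to 355 in the treated mice, just apart. None of 20 genes of T and NK cells passed the filter, so that a change there was not detectable at this depth. Of 14 B and plasma cell genes Ighm, the IgM heavy chain, was the only one tested, and went from 67.3, 43.5, 111 and 52.3 to 539.7, 217, 235 and 384 without overlap (log2 fold change 2.29, SE 0.37, adjusted p = 7.1e-05). It made up most of the list's summed count. The sum of the other members, taken after the values were seen, was 60.7, 42.4, 48.8 and 28.9 in the PTU mice and 22.7, 28.9, 12.1 and 27.1 in the treated mice, lower on average at 24 h. With no filter on low counts, Cd79b, a part of the B cell receptor, and Fcer2a, an IgE receptor, were called down at under 10 normalised counts in every mouse.

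Among lymphatic endothelial genes 1 of 3 tested was up, and Lyve1 was not called. Cell division was hardly measurable. Of 22 mitosis genes 1 was tested, Ube2c, which was called up (2.31) but overlaps the muscle gene Tnnc2 on the other strand, and Mki67 and Top2a were below the filter. Of 15 tested DNA replication genes 3 were up and 1 down, including Rrm1, a subunit of ribonucleotide reductase (0.59). Of 18 skeletal muscle genes, the oxygen carrier Mb was called (log2 fold change 1.64, SE 0.60, adjusted p = 0.0417), a call lost in 8 alternatives, with 5 muscle genes up with no filter on low counts, 4 with only these 8 mice in the fit, 2 without B2 or B24 and 0 without any other single mouse, and Acta1, at 359 to 3048 and 1561 to 5576, was not.

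**Figure D3:**
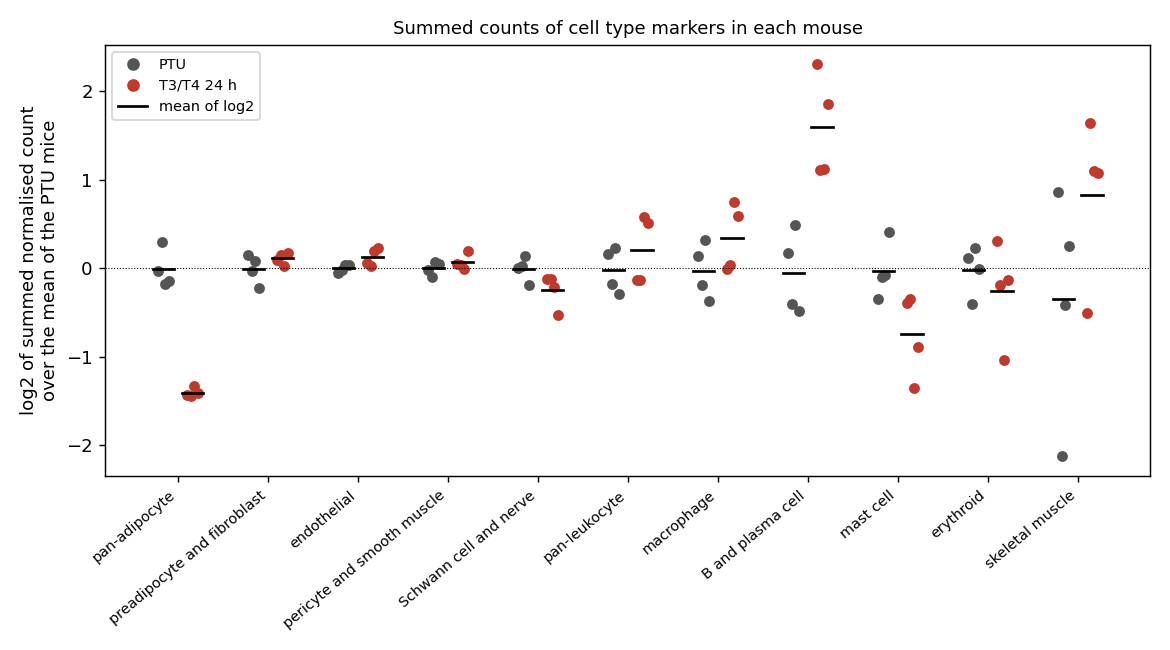
Summed normalised count of cell type marker lists in each mouse, on a log2 scale relative to the PTU mice (y axis), for PTU and 24 h after T3/T4. The pan-adipocyte sum of the treated mice lies well below the controls, the B and plasma cell sum, which is mostly Ighm, above them, and the muscle sum spreads widely in both groups.

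Part of the adipocyte change came after 12 h. In the direct comparison of 24 h with 12 h mice, 726 genes were higher (5.58%) and 754 lower (5.8%) at 24 h. Leaving out 1 mouse gave 419 to 844 higher and 438 to 856 lower. Of the 16 pan-adipocyte genes 6 were lower at 24 h and 1 higher, and of the 16 genes of fatty acid uptake 7 were lower and 2 higher. Adipoq was -0.70 against PTU at 12 h and -2.14 at 24 h, a difference of -1.43 (SE 0.12, adjusted p = 1.76e-06). Car3 went from -1.71 to -4.04 (difference -2.32, SE 0.31, adjusted p = 7.83e-05). Lpl was above the controls at 12 h (0.39) and below them at 24 h (difference -1.25, SE 0.13, adjusted p = 1.48e-05). Adrb3 was lower at 12 h (-3.22) than at 24 h (-1.83, difference 1.40, SE 0.35). Of 20 lipogenic genes 6 were higher and 1 lower at 24 h than at 12 h, and their median went from -0.40 at 6 h to 0.51 at 24 h. All time points were set against the same 4 controls.

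**Figure D4:**
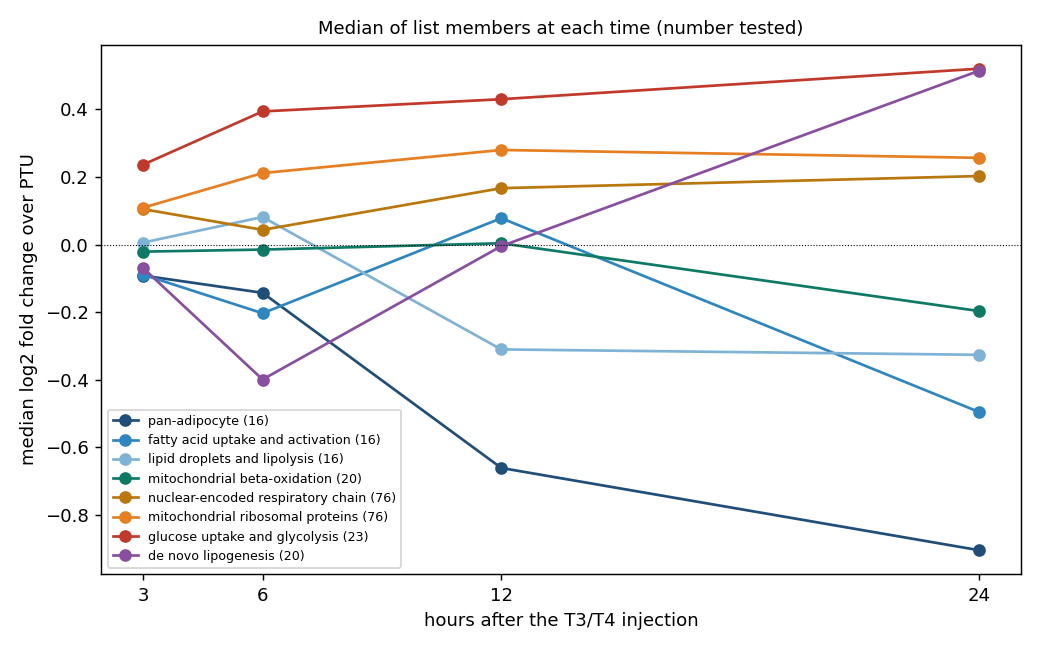
Median log2 fold change over the PTU mice (y axis) of the tested members of gene lists at 3, 6, 12 and 24 h after the injection (x axis), with 4 mice at each time and the same 4 controls throughout. The pan-adipocyte median is -0.66 at 12 h and -0.90 at 24 h, and that of glycolysis is 0.24 at 3 h and 0.52 at 24 h.

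Among called genes with a mean above 50, the 2 largest differences each way between 24 h and 12 h were in muscle and clock genes. Myh2 and Pgam2, both of muscle, were higher at 24 h by 3.60 (SE 0.81) and 3.32 (SE 0.75), while neither was called against PTU. Both passed the threshold against PTU with no filter on low counts and with only these 8 mice in the fit, and Myh2 without B2 and Pgam2 without B24. Of the 18 genes of the muscle list, Myh2 among them, 9 were higher at 24 h than at 12 h. Dbp and Per3, genes of the circadian clock, were lower at 24 h than at 12 h, with differences of -3.29 (SE 0.54) and -3.24 (SE 0.35), and were not called at 24 h against PTU. Dbp passed that threshold with no filter on low counts (1.30) and without B4 (2.68, adjusted p = 0.00841), the highest control. Of 18 clock genes 10 were lower and 3 higher at 24 h than at 12 h. The time of day of sampling is not given in the sources used here, so that hours after injection and time of day cannot be told apart. Against PTU 5 clock genes were up at 24 h and 0 down by edgeR, among them Bhlhe40 (1.46, SE 0.31) and Per2 (1.52, SE 0.44). Without B27 2 were up and 1 down, and Per2 was not called (1.03, adjusted p = 0.077), and without B2 3 were up.

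In the hormone axis, 3 of 10 tested genes were up and 3 down. Klf9, a well known T3 target, was at 873, 1024, 1070.1 and 922 in the PTU mice and at 2362, 2198, 2818 and 2258 in the treated mice, all of them above the controls (log2 fold change 1.31, SE 0.10, adjusted p = 4.25e-09). Hr, a corepressor of the T3 receptors and itself a T3 target, went from 8.54, 12.6, 12.6 and 17.8 to 263, 269.7, 307 and 375, with the same separation (log2 fold change 4.57, SE 0.31, adjusted p = 7.22e-10). Of 10 immediate early genes 1 was called, Nr4a1, which fell with overlapping groups (log2 fold change -1.99, SE 0.67, adjusted p = 0.0271). Its call was lost without B4, B5 or B26 and with all 30 mice in the fit. The list had 4 genes down without B2, 2 without B27 or B28, and 5 with no filter on low counts.

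The 24 h response of wild-type mice was compared with that of BATKO mice by an interaction term. Among 14178 genes tested, 1740 differed (12.3%), of which 1014 had the higher response in wild-type mice (7.15%) and 726 the lower (5.12%). In BATKO mice alone 0 genes passed the threshold by edgeR and 0 by DESeq2. An unadjusted p under 0.05 was found for 673 of 14178 and 687 of 14129 genes. Both are no more than the share of 0.05 due without any response. Of the pan-adipocyte genes 9 had a lower and 1 a higher response in wild-type mice, and their median in BATKO mice was -0.15. Adipoq changed by -0.13 in BATKO mice, a difference of -2.0 (SE 0.20, adjusted p = 2.46e-07). The differences were -3.65 for Car3 (SE 0.50), -1.98 for Cidec (SE 0.30), -0.83 for Lpl (SE 0.28) and -3.76 for Gpat3 (SE 0.53). In glycolysis 8 genes had the higher response in wild-type mice and 0 the lower. Gpd2 and Ckb also responded more in wild-type mice, by 1.33 (SE 0.25) and 2.92 (SE 0.71). For Ucp1 the difference of 0.75 (SE 0.32) was not past the threshold (adjusted p = 0.117). The filter on low counts passed 13003 genes over the 20 wild-type mice and 14178 over the 30 mice. Of the 13 proteins of the mitochondrial genome it passed 8 and 13. Whether wild-type and BATKO libraries differed in preparation or counting was not tested. Such a difference and genotype cannot be told apart here.

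**Figure D5:**
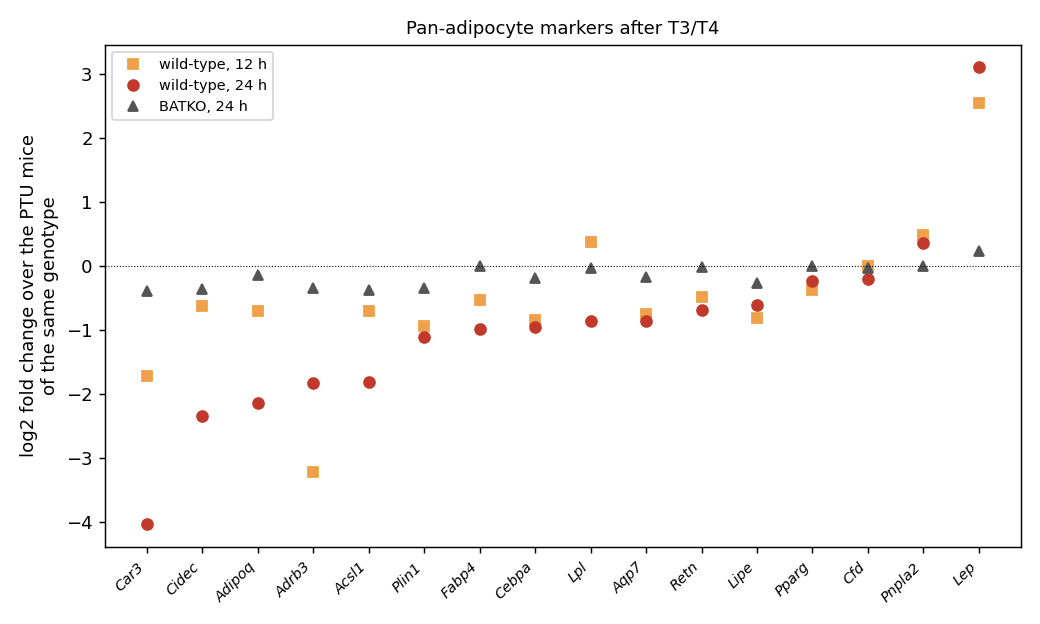
Log2 fold change over the PTU mice of the same genotype (y axis) of the 16 pan-adipocyte genes in wild-type mice at 12 h and 24 h and in BATKO mice at 24 h. Car3 is at -1.71, -4.04 and -0.39.

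The 4 treated mice were not alike. B27 had the highest Ucp1, Dio2, Ppargc1a, Pck1, Gk and Pdk4 of the treated mice and the lowest Acly, Acaca and Lep, and B24 had the lowest Ucp1, Dio2, Ppargc1a, Pck1 and Pdk4. Acly was at 20441, 22828, 9792 and 15928 in the treated mice, against 19657 to 29763 in the controls, so that B27 and B28 lay below all controls and B24 and B26 within their range. Dio2, 934 in B24 and 8167 in B27, spanned a wider range in the treated mice than Adipoq, at 3477 to 4333.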

How the data were processed

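BAT RNA of single mice, extracted with Trizol, was sequenced from total RNA libraries. Reads had been aligned by the authors to mm10 with Bowtie2 (2.3.2.2 in the submitters' processing notes), those with a mapping quality under 10 discarded, and the rest assigned to genes by htseqcount. The deposited values are raw counts. The annotation and strand setting are not given in the sources used here, so genes overlapping on opposite strands cannot be told apart. Tables of the temperature and diet experiments were not used here. Whether mice shared a cage or litter is not stated.

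Counts were analysed in R 4.3.3 with edgeR 4.0.16 (TMM, mean normalised count above 10 over the 20 wild-type mice of 5 groups, quasi-likelihood test, Benjamini-Hochberg adjustment, threshold 0.05), with DESeq2 1.42.0, other size factors, filters and sets of mice as alternatives. The interaction was fitted on 30 mice. The members and 39 gene lists were chosen with earlier results of these data known, and no list was tested. Of 55341 symbols 55327 matched GENCODE (GRCm38) and 14 had become dates. Genes named were key genes of each list, the 2 largest called changes of each list with a mean above 50, the 6 largest without overlap in each direction and the 2 largest each way between 24 h and 12 h and against BATKO (all with a mean above 50), the cell marker with the highest count per kilobase, and those said to be named later. A few genes that this rule names are not reported here. The fits were tested on simulated data. The 4 mice of a group limit the precision, and every pair of replicates differed beyond sampling noise (chi-square per degree of freedom at least 8.08).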

Additional observations from a re-analysis of the deposited data

Results flagged for a closer look

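In 15 of 298 groups of 4 values examined, 1 mouse lay apart from the other 3 by Dixon's criterion at its usual critical value, which chance exceeds in about 1 group in 20. In the PTU mice, B4 was highest for Dbp (71.7 normalised counts), Per3 (146) and Cdsn (294). B5 was highest for Sc5d (1743), Pdk1 (1961) and Cpt1b (92.3), had the only count of 9030619P08Rik (2.22), and had the lowest summed count of DNA replication genes (460.5). B3 was highest for B3galt2 (3866), and B2 lowest for Plin4 (1019). In the treated mice, B27 was highest for Acot4 (153), S100a9 (95.7) and the summed monocyte and neutrophil genes (251.7). B26 had the lowest Ptprc (20.5) and the highest summed count of lipogenic genes (685990).

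The wild-type and BATKO responses differed by the interaction test for 1740 genes. Among the genes described, the difference on the log2 scale was 9.16 for Gm32468, 7.21 for 9030619P08Rik, 2.92 for Ckb, 1.33 for Gpd2, -0.83 for Lpl, -1.98 for Cidec, -2.0 for Adipoq, -3.65 for Car3 and -3.76 for Gpat3. The first 2 rest on controls with at most 2 counts, their size depends on the prior count of the fit, and neither passed the threshold without BATKO control 4 (adjusted p = 0.977 and 0.957).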

How the results depend on the processing

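With DESeq2, other size factors, other filters on low counts, other sets of mice in the fit or without the mitochondrial genome, 1826 to 2268 genes were up and 1588 to 1998 down at 24 h. Leaving out 1 mouse gave 1747 to 2259 up and 1560 to 2111 down, the fewest without the control B3. No alternative moved the median of all genes by more than 0.0153. The comparison with 12 h depended more on single mice, with 419 (without B21 of the 12 h mice) to 844 genes higher and 438 (without B19) to 856 lower, and 482 and 466 without B28, 500 lower without B26 and 470 lower without B21. The number of genes differing from BATKO mice was 1205 to 1928 when 1 wild-type mouse was left out, 1288 to 2101 when 1 BATKO mouse was left out (added after seeing the data) and 1348 to 1984 under the other settings. Genes called in BATKO mice alone were 0 to 1 when 1 BATKO mouse was left out. Without BATKO control 4, Gm32468 and 9030619P08Rik no longer differed between genotypes by the test (5.00 and 4.48, adjusted p = 0.977 and 0.957). The mitochondrial share differed by -7.97 to -3.99 percentage points. Of 74 named genes called, 63 kept the call under every alternative run and 11 lost it under some, namely Cs, Pecam1, Mb, Tagln, Thrsp, mt-Nd5, Nr4a1, Dgat2, F3, Per2 and Retn, while 11 others (Dbp, Dio2, Gk, Kit, Ly6a, Me1, Myh2, Pdgfra, Pdk4, Pgam2 and Ppargc1a) passed the threshold under some. Genes that were not called changed sign when 1 mouse was left out, with log2 fold changes of -0.276 to 0.0621 for Acaca, -0.0772 to 0.213 for Adgre1, -0.302 to 0.245 for Cd74, -0.354 to 0.0196 for Cpt1b, -0.0143 to 0.247 for Fasn, -0.115 to 0.408 for Lyve1, -0.636 to 0.0230 for Per3 and -0.105 to 0.214 for Ptprc. The cause was not tested. The summed level of B and plasma cell genes, at 1.69 on the log2 scale, was -0.994 without Ighm (a choice made after seeing the data) and -0.0849 as a mean of log2 CPM. No paired analysis was possible because the groups of wild-type mice share no mouse number. At this depth, genes of lymphocytes and of cell division were mostly too low to test.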
